A study of Equus caballus with 17 samples.

Results

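The miR-99/100 family (eca-miR-99a, eca-miR-99b and eca-miR-100) and the miR-125 family (eca-miR-125a-5p and eca-miR-125b-5p) make up 5 of the 274 annotated mature microRNAs (miRNAs) counted by small RNA sequencing of horse (Equus caballus) testis and sperm. The 5 were taken by name, and where a name had several precursor entries the entry with the highest summed counts was kept. The study covered 17 libraries in 5 groups, which its design text describes as stages of spermatogenesis. Whole testis was sampled at the stages labelled Infant (libraries 31a, 31b and 30), Pre-puber (3a, 3b and 14), Puber (10, 11 and 19) and Adult (13, 20, 33 and 4), and sperm in libraries 1, 2, 3 and 4. The labels used here give the tissue and the stage of each library, with no age in years, breed, genotype or treatment. Sperm RNA had a shorter DNase step followed by phenol and chloroform purification, and testis RNA a longer DNase step, so in any comparison of Sperm with Adult testis the tissue and the RNA handling cannot be told apart. Libraries 31a and 31b share a title number, as do 3a and 3b, and no label states that replicates come from different animals. The p-values below therefore describe the spread among these libraries, which may be technical in part.

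miRNAs are short RNAs that guide Argonaute proteins to messenger RNAs and lower their output. miR-99a, miR-99b and miR-100 are nearly identical in sequence, belong to the ancient miR-10/100 group and are known in mammals to act on mTOR and the IGF1 receptor, parts of a growth pathway. The miR-125 miRNAs are the mammalian relatives of lin-4, which sets developmental timing in the worm Caenorhabditis elegans, and in mammals they lower LIN28, a protein that blocks the processing of let-7. In mammals, members of both families lie in clusters with a let-7 miRNA. In the RefSeq gene table for the horse assembly TB-T2T, a window of 100 kb placed mir-99a-2 beside let-7c and mir-125b-2, mir-100 beside let-7a and mir-125b, and mir-99b beside let-7e and mir-125a. In this annotation 1 gene of another kind lay between mir-125b and each of its neighbours, and 1 between mir-125b-2 and each of its neighbours. The counts of eca-miR-99a are those of the entry mir-99a-2. eca-miR-125b-5p had 2 entries, mir-125b and mir-125b-2, whose counts were nearly equal (in each library the smaller held 0.967 to 0.993 of the larger), so the table does not separate its 2 clusters. How reads that could match several of these near-identical miRNAs were assigned is not given in the sources used here.

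Annotated miRNA counts per library lay at 9.535 to 12.37 M (mega) in the Infant group, 8.109 to 13.12 M in the Pre-puber group, 3.959 to 6.038 M in the Puber group, 2.179 to 4.619 M in the Adult group and 1.482 to 2.261 M in the Sperm group. Depth therefore fell along the series, but the members were well counted throughout: the lowest count of any member was 41816 among Infant libraries, 34529 among Pre-puber, 16641 among Puber, 5994 among Adult and 168 among Sperm libraries. Markers of meiotic and later germ cells (miR-34b-5p, miR-34c and miR-449a, 3 of 3 in the table) summed to 14.6 to 30.7 CPM (counts scaled to an equal total of annotated counts per library) in the Infant libraries, 50.5 to 2896 CPM in the Pre-puber, 10270 to 27850 CPM in the Puber, 43710 to 71740 CPM in the Adult and 57630 to 229700 CPM in the Sperm libraries. Pre-puber 14 held the 2896 CPM and stood apart from Pre-puber 3a and 3b. The stroma and smooth muscle markers in the table (3 of 6) summed to 14330 to 37360 CPM over the testis libraries and to 32.7 to 97.1 CPM in Sperm, and none of the listed markers in the table was at 0. The 3 did not move together: miR-145 lay at 2328 to 3002 CPM in Infant and 4950 to 12450 CPM in Adult. miR-199a-5p lay at 15870 to 23670 CPM in Infant and 6854 to 15090 CPM in Adult. miR-199b-5p lay at 3701 to 7779 CPM in Infant and 1594 to 3267 CPM in Adult. In whole tissue, fewer cells of a type and less of a miRNA per cell cannot be told apart.

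Together the 5 miRNAs held 32.8 ± 3.58% of annotated counts in Infant testis (mean ± SD, here over 3 libraries each for Infant, Pre-puber and Puber and 4 each for Adult and Sperm). Their share was 27.6 ± 3.01% in Pre-puber testis, 24.0 ± 3.29% in Puber testis and 17.6 ± 1.86% in Adult testis, and 3.66 ± 1.65% in Sperm. Most of this was the miR-99/100 family, with 29.2 ± 4.09% in Infant testis, 24.0 ± 2.25% in Pre-puber testis, 22.0 ± 4.29% in Puber testis, 15.1 ± 1.33% in Adult testis and 3.33 ± 1.37% in Sperm. The miR-125 family held 3.60 ± 1.93% in Infant testis, 3.58 ± 1.40% in Pre-puber testis, 2.08 ± 1.01% in Puber testis, 2.52 ± 1.01% in Adult testis and 0.329 ± 0.297% in Sperm. Between the testis stages the libraries of the miR-125 family overlapped, and those of Sperm lay below every testis library.

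**Figure D1:**
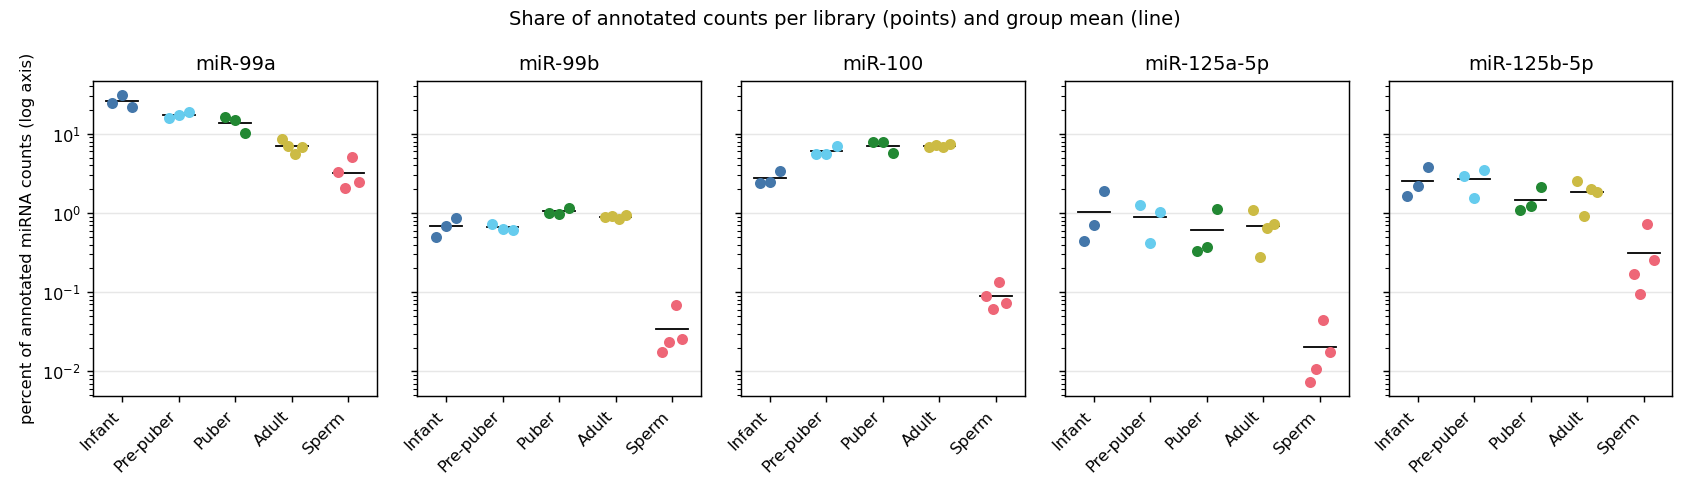
Level of each of the 5 miRNAs in every library, as percent of the library's annotated miRNA counts on a log axis, with libraries as points and the group mean as a line. The group mean of miR-99a is lower at each later stage, though Pre-puber and Puber libraries overlap. miR-100 is higher in every Pre-puber, Puber and Adult library than in the Infant libraries, and the drop in Sperm is smallest for miR-99a.

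miR-99a was among the most abundant miRNAs of the immature testis, and its mean share was lower at each later stage. It held 24.8, 30.7 and 21.8% of annotated counts in Infant 31a, 31b and 30, 15.8, 17.2 and 18.8% in Pre-puber 3a, 3b and 14, and 16.3, 14.8 and 10.2% in Puber 10, 11 and 19. In Adult 13, 20, 33 and 4 it was 8.67, 7.08, 5.56 and 6.81%, and in Sperm 1, 2, 3 and 4 it was 3.27, 2.06, 5.03 and 2.47%. No Infant library overlapped with a library of another group, Pre-puber and Puber overlapped, and every Adult library lay below every Puber library. It ranked 1 or 2 among annotated miRNAs in the Infant libraries, 1 in all Pre-puber libraries, 1 or 2 in the Puber, 2 to 6 in the Adult and 3 to 12 in the Sperm libraries.

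miR-100 differs little in sequence from miR-99a, yet its share of the counts went the other way in the testis. It held 2.42, 2.50 and 3.39% in Infant 31a, 31b and 30, 5.60, 5.65 and 7.12% in Pre-puber 3a, 3b and 14, and 7.83, 7.84 and 5.69% in Puber 10, 11 and 19. In Adult 13, 20, 33 and 4 it held 6.92, 7.30, 6.86 and 7.42%, and in Sperm 1, 2, 3 and 4 it held 0.0890, 0.0617, 0.133 and 0.0732%. The Infant libraries lay below all other testis libraries, the 3 later stages overlapped, and the Sperm libraries lay far below all of them.

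miR-99b was the least abundant of its family in each group. It held 0.495, 0.680 and 0.855% in Infant 31a, 31b and 30, 0.732, 0.626 and 0.613% in Pre-puber 3a, 3b and 14, and 0.993, 0.986 and 1.16% in Puber 10, 11 and 19. In Adult 13, 20, 33 and 4 it held 0.888, 0.922, 0.852 and 0.944%, and in Sperm 1, 2, 3 and 4 it held 0.0178, 0.0234, 0.0688 and 0.0258%. Infant and Pre-puber overlapped, Puber lay above the other stages, and Sperm lay below every testis library.

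The percentages of the miR-125 miRNAs varied widely within each stage. miR-125b-5p held 1.66, 2.21 and 3.85% in Infant 31a, 31b and 30, 2.95, 1.57 and 3.54% in Pre-puber 3a, 3b and 14, and 1.09, 1.22 and 2.12% in Puber 10, 11 and 19. Its percentages were 2.57, 0.923, 2.02 and 1.84 in Adult 13, 20, 33 and 4, and 0.168, 0.0954, 0.718 and 0.253 in Sperm 1, 2, 3 and 4. The testis stages overlapped, and Sperm 3 lay above the other Sperm libraries and below every testis library.

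miR-125a-5p held 0.439, 0.712 and 1.92% in Infant 31a, 31b and 30, 1.25, 0.415 and 1.02% in Pre-puber 3a, 3b and 14, and 0.328, 0.368 and 1.12% in Puber 10, 11 and 19. In Adult 13, 20, 33 and 4 it held 1.08, 0.275, 0.656 and 0.719%, and in Sperm 1, 2, 3 and 4 it held 0.00743, 0.0107, 0.0451 and 0.0174%. Infant 30, Puber 19 and Adult 13 were the highest of their stage for both miR-125 miRNAs, and Pre-puber 3b and Adult 20 the lowest of theirs for both. Over the 13 testis libraries the log2 CPM values of the 2 miRNAs had a Pearson r of 0.92, a description over libraries that share stages and scaling. The r between miR-99a and miR-100 was -0.07, and between miR-100 and miR-125a-5p -0.56.

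The order of the 5 levels changed with the stage. Reads were counted on mature miRNAs of nearly the same length, so the percentages can be set side by side, though ligation and PCR can favour some sequences. In Infant testis miR-99a led at 25.8 ± 4.50%, and its libraries did not overlap with those of the next, miR-100 at 2.77 ± 0.542%. From there each neighbour in the order overlapped with the next, through miR-125b-5p at 2.57 ± 1.14% and miR-125a-5p at 1.02 ± 0.789% to miR-99b at 0.677 ± 0.180% (SD, n = 3). At the Pre-puber and Puber stages, miR-99a, miR-100 and miR-125b-5p followed each other without overlap between the libraries of neighbours. In Adult testis miR-100 at 7.12 ± 0.274% and miR-99a at 7.03 ± 1.28% overlapped, above miR-125b-5p at 1.84 ± 0.684% (SD, n = 4). In Sperm miR-99a stood alone at 3.21 ± 1.32%, above miR-125b-5p at 0.309 ± 0.280% and miR-100 at 0.0891 ± 0.0312%, which overlapped.

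The make-up of the miR-99/100 family can be read within each library, where no scaling between libraries enters. miR-99a held 89.5, 90.6 and 83.7% of the family's counts in Infant 31a, 31b and 30, 71.3, 73.3 and 70.8% in Pre-puber 3a, 3b and 14, 64.9, 62.7 and 59.8% in Puber 10, 11 and 19, and 52.6, 46.3, 41.9 and 44.9% in Adult 13, 20, 33 and 4. In Sperm 1, 2, 3 and 4 it held 96.8, 96.0, 96.1 and 96.1%. The share of miR-100 averaged 9.70 ± 2.94% in Infant testis, 25.4 ± 1.42% in Pre-puber testis, 32.5 ± 1.20% in Puber testis (SD, n = 3 each) and 47.6 ± 4.08% in Adult testis, against 2.73 ± 0.168% in Sperm (n = 4 each). No groups overlapped for either share: at each later testis stage miR-99a made up less of the family and miR-100 more, and in Sperm miR-99a was nearly all of it.

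**Figure D2:**
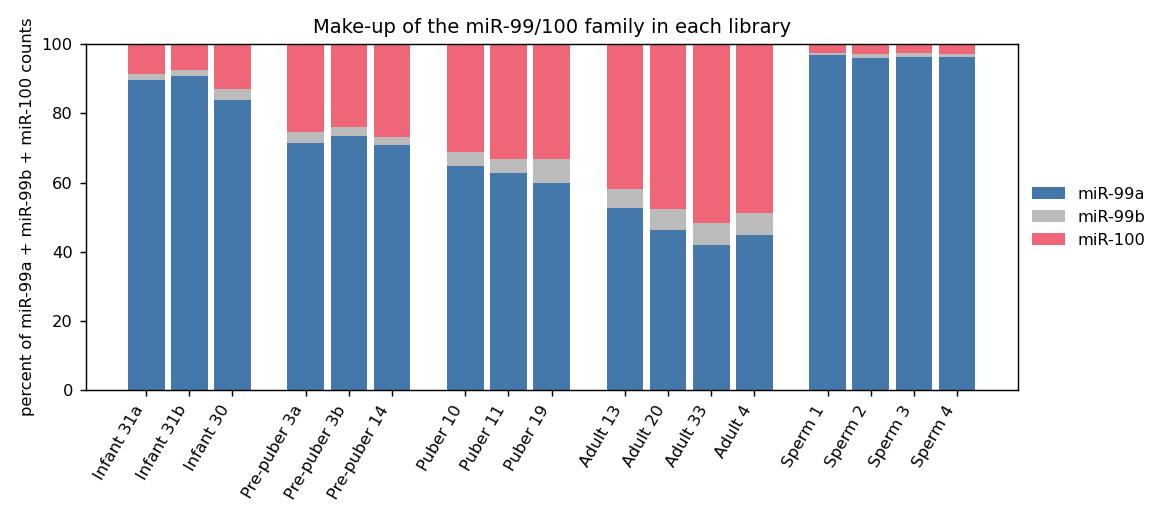
Make-up of the miR-99/100 family in each library, as stacked percentages of the summed counts of miR-99a (bottom), miR-99b (middle) and miR-100 (top). The miR-99a share is 83.7 to 90.6% in the Infant libraries, smaller at each later stage, 41.9 to 52.6% in the Adult libraries and 96.0 to 96.8% in Sperm.

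The ratio of miR-99a to miR-100 counts had a geometric mean of 9.33 over the Infant libraries (6.44 to 12.3), 2.83 over the Pre-puber (2.64 to 3.05), 1.92 over the Puber (1.80 to 2.08), 0.975 over the Adult (0.810 to 1.25) and 35.4 over the Sperm libraries (33.3 to 37.9). On the log2 scale Adult averaged -0.04 ± 0.27 (SD, n = 4) and Infant 3.22 ± 0.48 (n = 3), a difference of -3.26. Sperm averaged 5.14 ± 0.09 (n = 4), a difference of 5.18 from Adult. An exact two-sided permutation test gave p = 0.0286 for each, the smallest that 4 libraries against 3 or against 4 allow, and an adjusted p of 0.0857 over the 21 ratio tests (7 ratios in 3 comparisons). Pre-puber averaged 1.50 ± 0.11 (n = 3), a difference of -1.72 from Infant with p = 0.10, the smallest that 3 against 3 allow (exact permutation test, adjusted p = 0.162). None of the 21 tests passed an adjusted p of 0.05, and the design could bring none below 0.0286 before adjustment.

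A test over all 4 testis stages at once has more arrangements, and was added after the data were seen. Over all 1201200 arrangements of the 13 libraries, the exact permutation p for the ratio of miR-99a to miR-100 was 5.0e-06, the smallest they can give, and 3.5e-05 adjusted over 7 ratios. Stage held 0.963 of the variance of this log2 ratio. Libraries 31a and 31b, and 3a and 3b, share title numbers but counted as separate libraries in these arrangements. The ratio of miR-99a to let-7c, its neighbour in the genome, also changed over the stages (exact permutation p = 1.9e-04, adjusted p = 6.8e-04). It averaged 2.36 ± 0.39 (log2) in Infant testis, 1.36 ± 0.23 in Pre-puber testis, 1.10 ± 0.19 in Puber testis (SD, n = 3 each) and 0.29 ± 0.34 in Adult testis (n = 4), so the counts of the 2 miRNAs, whose precursors are neighbours, were closest to each other in Adult testis. The ratio of miR-100 to miR-125b-5p averaged 0.18 ± 0.36, 1.26 ± 0.51 and 2.32 ± 0.78 in Infant, Pre-puber and Puber (SD, n = 3 each) and 2.05 ± 0.67 in Adult (n = 4), with an exact permutation p of 0.00816 (adjusted p = 0.019). That call ended without Infant 31b (adjusted p = 0.0591) and without Infant 30 (adjusted p = 0.0918).

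For the other 4 ratios the exact permutation test over the stages did not pass (adjusted p of 0.14 to 0.913), which does not show that they were stable. The log2 ratio of miR-125a-5p to miR-125b-5p averaged -1.52 ± 0.47 in Infant testis, -1.65 ± 0.36 in Pre-puber testis, -1.46 ± 0.47 in Puber testis (SD, n = 3 each) and -1.49 ± 0.23 in Adult testis (n = 4), and stage held 0.048 of its variance (exact permutation p = 0.913). miR-125a-5p thus made up 26.2 ± 6.41% of the miR-125 counts in Infant testis, 24.3 ± 4.70% in Pre-puber testis, 27.0 ± 6.64% in Puber testis and 26.3 ± 3.09% in Adult testis. In Sperm it was 6.67 ± 2.47%, and the log2 ratio averaged -3.87 ± 0.55 in Sperm and -1.49 ± 0.23 in Adult (SD, n = 4 each), a difference of -2.38 with no overlap (exact permutation p = 0.0286, the smallest possible, adjusted p = 0.0857). For miR-99b against its cluster neighbours, the log2 ratio to miR-125a-5p averaged 0.56 ± 0.85 in Adult (n = 4) and -0.35 ± 0.72 in Infant (n = 3), and that to let-7e 0.94 ± 0.12 in Adult and 0.52 ± 0.31 in Infant. The differences were 0.91 and 0.42 (log2), the groups overlapped, and the exact permutation p were 0.257 and 0.0571 (adjusted p of 0.36 and 0.133). The log2 ratio of miR-99a to miR-125b-5p averaged 2.01 ± 0.64 in Adult (SD, n = 4) and 3.40 ± 0.78 in Infant (n = 3), a difference of -1.39 or 2.62-fold with overlap between the groups (exact permutation p = 0.0857, adjusted p = 0.162). In Sperm it averaged 3.70 ± 0.78 (n = 4), a difference of 1.69 from Adult, also with overlap (exact permutation p = 0.0571, adjusted p = 0.133).

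**Figure D3:**
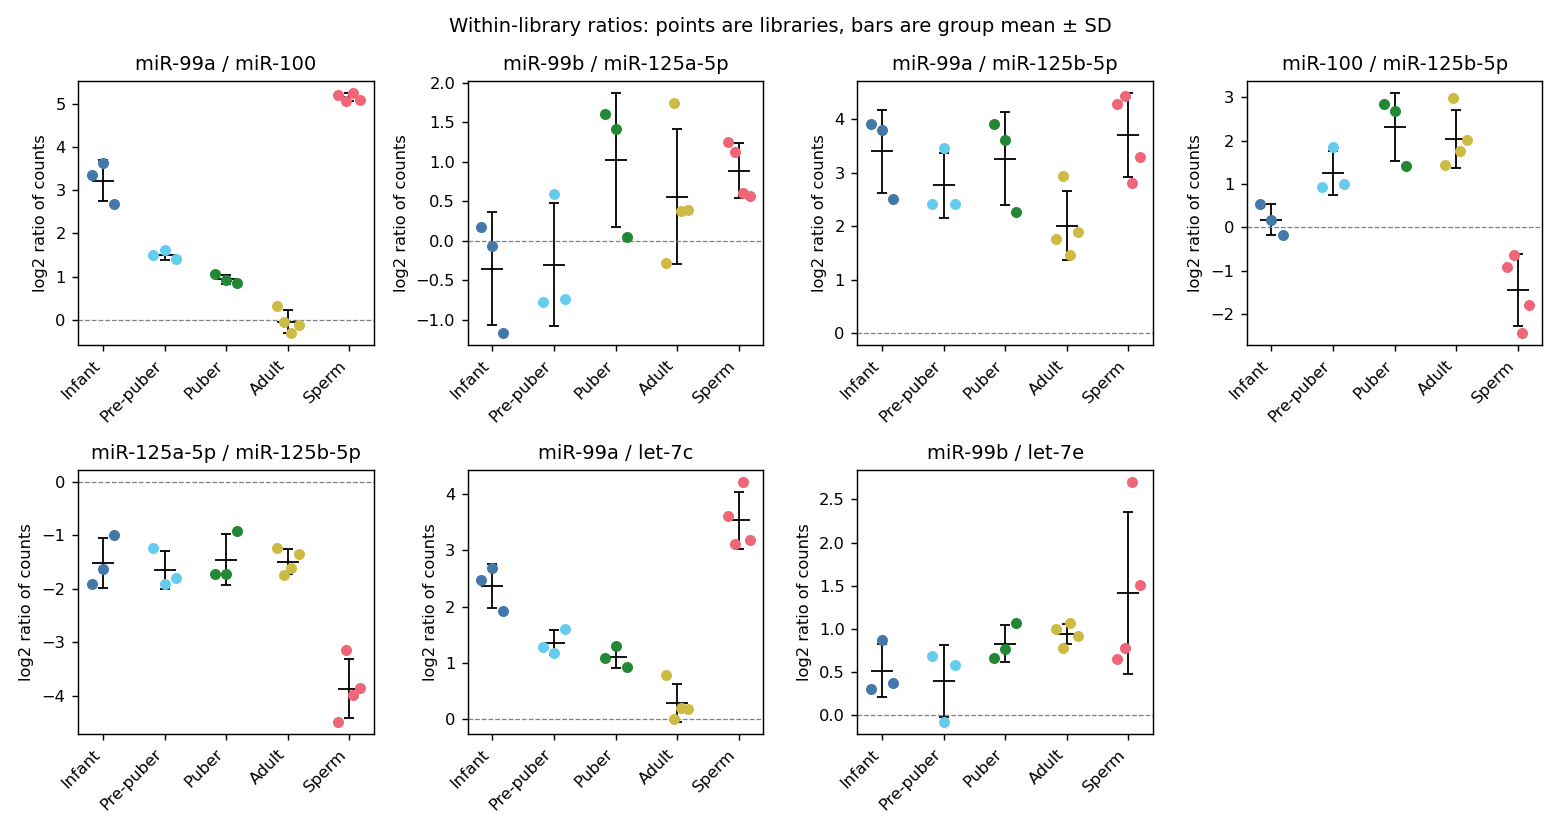
The 7 within-library log2 ratios of counts in the 5 groups, with libraries as points and bars for the group mean ± SD. The ratio of miR-99a to miR-100 steps down over the testis stages without overlap and is highest in Sperm, and the ratio of miR-125a-5p to miR-125b-5p overlaps between the testis stages and is lower in Sperm.

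Changes between stages were then tested with edgeR's quasi-likelihood test across all annotated miRNAs, on counts scaled by TMM, which assumes that most miRNAs do not move between libraries. A miRNA was called at a Benjamini-Hochberg adjusted p under 0.05. From here on CPM values are TMM-scaled, except those of the marker miRNAs and their sums, which are plain CPM. The percentages above and the TMM-scaled levels answer different questions: the scaling factors were 0.58 to 0.83 in the Infant libraries and 0.96 to 1.56 in the Adult libraries, so TMM raised Infant levels relative to Adult levels. The assumption of TMM is in doubt for Adult against Infant, where 51.6% of the 184 miRNAs were called. It is also in doubt for Sperm against Adult, where 81.5% of 162 were called. Fold sizes in both depend on the scaling. Over the 4 stages 2 of the 5 members were called, against 47.8% of all 184 miRNAs tested, a share near that background. They were miR-99a (adjusted p = 4.6e-04) and miR-125b-5p (adjusted p = 0.00347). miR-125a-5p, miR-99b and miR-100 had adjusted p of 0.0636, 0.129 and 0.143.

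Adult against Infant testis spans the whole course. miR-99a stood at 54810 ± 16460 CPM in Adult (SD, n = 4) and 380500 ± 102500 CPM in Infant (n = 3), a 6.94-fold fall (log2 fold change -2.80 ± 0.34 SE, adjusted p = 9.5e-05). miR-125b-5p stood at 13450 ± 3460 CPM in Adult and 35820 ± 9347 CPM in Infant (-1.41 ± 0.31, adjusted p = 0.00198), and miR-125a-5p at 4956 ± 1995 CPM in Adult and 13730 ± 8299 CPM in Infant (-1.47 ± 0.48, adjusted p = 0.0232). These 3 calls were all lower in Adult, where 51.6% of the 184 miRNAs were called in either direction and 25.5% were called lower. The median log2 fold change of the 5 members was -1.41, and that of all miRNAs tested was -0.14. miR-100, at 55480 ± 14360 CPM in Adult and 39730 ± 2520 CPM in Infant (0.48 ± 0.29, adjusted p = 0.179), and miR-99b, at 7025 ± 1826 CPM in Adult and 9613 ± 966.5 CPM in Infant (-0.45 ± 0.24, adjusted p = 0.127), were not called.

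The call of miR-99a held under all 11 other settings, with log2 fold changes from -4.70 to -1.87, and without each of the 7 libraries in turn, from -3.06 to -2.64. Without scaling beyond the library total, which moved the median of all miRNAs to 0.82, the calls of miR-125b-5p (-0.49, adjusted p = 0.342) and miR-125a-5p (-0.58, adjusted p = 0.452) ended, miR-100 was called higher (1.36, adjusted p = 1.0e-04) and miR-99b changed sign (0.41, adjusted p = 0.146). That setting gave 1 member higher and 1 lower in place of 0 higher and 3 lower, with 105 of 184 miRNAs called in either direction. The call of miR-125a-5p also ended without Infant 30 (-0.87, adjusted p = 0.155) and without Adult 20 (-1.30, adjusted p = 0.0526), by RLE scaling (-1.29, adjusted p = 0.0509) and with all 17 libraries in 1 fit (-1.44, adjusted p = 0.0806). With all 17 libraries in 1 fit the call of miR-125b-5p ended as well (-1.38, adjusted p = 0.0633). Infant 30 was the Infant library with the highest sum of blood cell miRNAs, whose 4 listed members in the table (of 7) summed to 5400 CPM in it, against 619.5 CPM in Infant 31a and 848 CPM in 31b. Adult 33 held 7502 CPM, against 1034 to 1555 CPM in the other Adult libraries. The sum in Infant 30 was mostly miR-486-5p, at 4160 CPM. miR-451 and miR-142-5p were also highest there among the Infant libraries, but miR-150 was lowest there (167 CPM, against 244.7 CPM in 31a and 345.7 CPM in 31b). The part of blood cells in the miR-125a-5p values was not tested.

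Between neighbouring stages fewer members passed the test. In Pre-puber against Infant, 1 of 5 was called, with 23.9% of all miRNAs called and 8.15% called lower. It was miR-99a, at 182300 ± 38390 CPM in Pre-puber and 380500 ± 102500 CPM in Infant (SD, n = 3 each), with a log2 fold change of -1.06 ± 0.36 (SE) and an adjusted p of 0.0492. This call ended without each of Infant 31a, Infant 31b, Pre-puber 3a, Pre-puber 3b and Pre-puber 14 (-1.18 to -0.90 across these, adjusted p from 0.0653 to 0.166). It also ended without scaling beyond the total (-0.58, adjusted p = 0.0633), where miR-100 was called higher in its place (1.15, adjusted p = 0.00141). By TMM, miR-100 stood at 64700 ± 15730 CPM in Pre-puber and 39730 ± 2520 CPM in Infant (0.70 ± 0.31, adjusted p = 0.13). The other 3 members had log2 fold changes of -0.59 to -0.35. The median of the 5 members was -0.49 and that of all miRNAs was 0.16.

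In Puber against Infant, 2 of 5 were called, both lower, with 36.4% of all miRNAs called and 15.2% called lower. miR-99a stood at 137200 ± 56510 CPM in Puber and 380500 ± 102500 CPM in Infant (log2 fold change -1.47 ± 0.37 SE, adjusted p = 0.0063). miR-125b-5p stood at 13520 ± 2191 CPM in Puber and 35820 ± 9347 CPM in Infant (SD, n = 3 each, -1.41 ± 0.34, adjusted p = 0.00569). miR-100, at 70180 ± 24590 CPM in Puber and 39730 ± 2520 CPM in Infant (0.82 ± 0.31, adjusted p = 0.0535), and miR-125a-5p (-1.37 ± 0.53, adjusted p = 0.0556) missed the threshold. Without Puber 19 both were called (1.10 with adjusted p = 0.0117, and -1.86 with adjusted p = 0.0267), which made 4 members called, where 62 of 188 miRNAs were called. Leaving out Puber 19 also gave 4 members over the stages, where 88 of 188 miRNAs were called. Without scaling beyond the total, miR-99a (-0.90, adjusted p = 0.00397) and miR-100 (1.36, adjusted p = 2.6e-04) were called and miR-125b-5p was not (-0.80, adjusted p = 0.165). miR-125b-5p was not called with all 17 libraries in 1 fit either (-1.39, adjusted p = 0.109). The median of the 5 members was -1.37 and that of all miRNAs was 0.05.

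In Puber against Pre-puber none of the 5 was called, with 1.09% of all miRNAs called, 34 of 184 at an unadjusted p under 0.05, 16 called by DESeq2 and 19 by limma-voom (0 of the members by either). miR-125b-5p came nearest, as the 1 member with an unadjusted p under 0.05, at 13520 ± 2191 CPM in Puber and 28030 ± 11450 CPM in Pre-puber (-1.05 ± 0.34, adjusted p = 0.108). For miR-99a edgeR gave a log2 fold change of -0.41 ± 0.36 (SE, adjusted p = 0.584). In Adult against Puber none was called either, and edgeR called 0 of all 184 miRNAs, or 0%, with 34 at an unadjusted p under 0.05, 10 called by DESeq2 and 0 by limma-voom. miR-99a, at 54810 ± 16460 CPM in Adult (SD, n = 4) and 137200 ± 56510 CPM in Puber (n = 3), had the largest change of the 5 (-1.32 ± 0.33, adjusted p = 0.0595) and was the 1 member with an unadjusted p under 0.05. It was called by DESeq2 and in a fit of these 2 groups alone, without Puber 19 (-1.61, adjusted p = 0.0184), without Adult 20 (-1.51, adjusted p = 0.0473) and without scaling beyond the total (-0.97, adjusted p = 0.0469). The other 4 members had log2 fold changes of -0.51 to -0.01. These stage comparisons share libraries, so their values are not independent of each other.

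**Figure D4:**
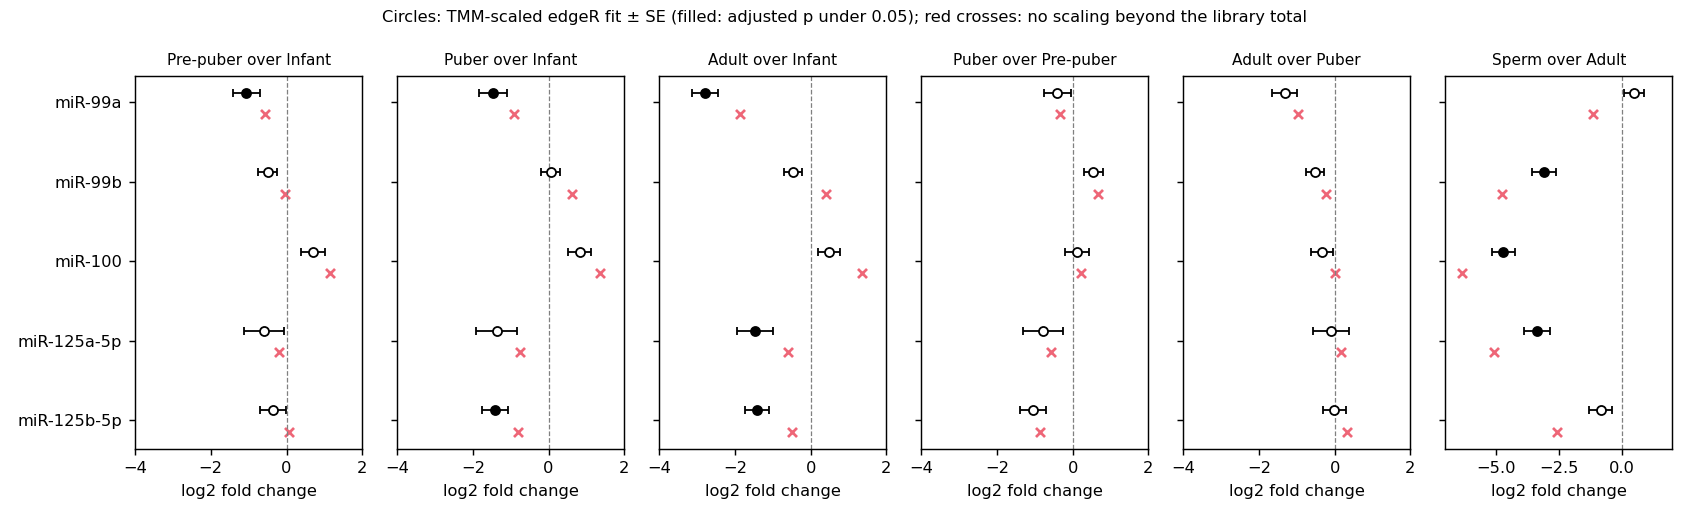
Log2 fold changes of the 5 miRNAs in 6 comparisons, with circles for the TMM-scaled edgeR fit ± SE (filled where the adjusted p is under 0.05) and red crosses for the same fit without scaling beyond the library total; the axis of the Sperm comparison is wider. miR-99a lies furthest below 0 in Adult over Infant, and miR-100 lies furthest below 0 in Sperm over Adult.

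Sperm against Adult testis gave calls for some members of each family in the main fit. By a separate fit of these 8 libraries, 3 of 5 members were called, all lower in Sperm, where 81.5% of 162 miRNAs were called and 39.5% were called lower. The CPM of this fit were scaled apart from those of the testis fit, so Adult values differ between the fits. miR-100 stood at 1593 ± 607 CPM in Sperm and 41150 ± 9484 CPM in Adult (SD, n = 4 each), a 25.8-fold fall (log2 fold change -4.69 ± 0.46 SE, adjusted p = 8.8e-14). miR-125a-5p stood at 368 ± 320 CPM in Sperm and 3775 ± 1739 CPM in Adult (-3.36 ± 0.51, adjusted p = 4.0e-08). miR-99b stood at 612 ± 441 CPM in Sperm and 5213 ± 1224 CPM in Adult (-3.09 ± 0.47, adjusted p = 3.7e-08). For these 3 the call held under all 9 other settings and without each of the 8 libraries in turn, but the size moved with the scaling. The log2 fold changes over the settings ran from -6.32 to -4.69 for miR-100, from -5.08 to -3.36 for miR-125a-5p and from -4.73 to -3.09 for miR-99b, each largest without scaling beyond the total.

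The remaining member of each family was not called. miR-99a stood at 57260 ± 25000 CPM in Sperm and 40780 ± 11560 CPM in Adult (0.49 ± 0.40, adjusted p = 0.239), and miR-125b-5p at 5648 ± 5206 CPM in Sperm and 10150 ± 3220 CPM in Adult (-0.85 ± 0.45, adjusted p = 0.0793). The direction for miR-99a rested on the scaling: the TMM factors were 0.48 to 0.64 in Sperm and 1.42 to 2.30 in Adult, and without scaling beyond the total, which moved the median of all miRNAs to -1.61, all 5 members were called lower, with 122 of 162 miRNAs called in either direction, miR-99a by -1.13 (adjusted p = 0.00406) and miR-125b-5p by -2.58 (adjusted p = 2.4e-04). miR-125b-5p was also called lower under 7 of the 8 other settings, and by -1.67 (adjusted p = 0.00183) without Sperm 3. The median log2 fold change of the 5 members was -3.09 and that of all miRNAs was 0.06. The within-library ratios do not depend on this scaling: miR-99a over miR-100 was 36.3-fold higher in Sperm than in Adult, and miR-100 over miR-125b-5p was 11.2-fold lower, with log2 means of -1.44 ± 0.83 in Sperm and 2.05 ± 0.67 in Adult (SD, n = 4 each, exact permutation p = 0.0286, adjusted p = 0.0857).

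Beside these values, some of the markers of other cells also moved between Sperm and Adult. The stroma markers summed to 32.7 to 97.1 CPM in Sperm and 14330 to 29420 CPM in Adult, the endothelial marker miR-126-5p (1 of 2 in the table) stood at 20.9 to 25.6 CPM in Sperm and 307 to 868 CPM in Adult, and the epithelial marker miR-205 (1 of 7) at 163 to 653 CPM in Sperm and 1.84 to 3.68 CPM in Adult. The blood cell markers (4 of 7 in the table) overlapped, with sums of 887 to 2046 CPM in Sperm and 1034 to 7502 CPM in Adult. Among them miR-150 was lower in Sperm (6.41 to 41.8 CPM, against 63.6 to 181 CPM in Adult). miR-451 lay at 497 to 1271 CPM in Sperm and 90.4 to 1604 CPM in Adult. The gonadal soma marker miR-202 was not matched by name. The part of these cells in the members' values was not tested. Over the testis stages the germ cell markers moved opposite to the miR-99a share, and their part was not tested either.

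The cluster neighbours and relatives of the members were let-7a, let-7c and let-7e, and miR-10a and miR-10b, which share the ancestry of miR-99/100. None of these 5 was called over the 4 stages, in Pre-puber or Puber against Infant, in Puber against Pre-puber or in Adult against Puber by edgeR, and none had an unadjusted p under 0.05 there (the lowest was 0.0792, for miR-10b in Puber against Infant). Of all 184 miRNAs, 47.8, 23.9, 36.4, 1.09 and 0% were called in these tests, in that order. In Adult against Infant 1 of 5 was called, where 51.6% of the 184 miRNAs were called and 25.5% were called lower. It was let-7e, at 3726 ± 1310 CPM in Adult (SD, n = 4) and 6763 ± 1221 CPM in Infant (n = 3, log2 fold change -0.86 ± 0.33 SE, adjusted p = 0.0422). let-7c, the neighbour of miR-99a, stood at 45960 ± 19560 CPM in Adult and 72130 ± 3829 CPM in Infant (-0.65 ± 0.33, adjusted p = 0.113). let-7a had 2 entries, let-7a and let-7a-2, and the smaller summed count was 0.9999 of the larger. Its counts therefore cannot be tied to the mir-100 cluster alone.

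In Sperm against Adult 2 of these 5 were called lower and 1 higher, where 81.5% of the 162 miRNAs tested were called and 39.5% were called lower. let-7c stood at 4671 ± 815 CPM in Sperm and 33910 ± 12670 CPM in Adult (SD, n = 4 each, -2.86 ± 0.42, adjusted p = 1.5e-08). let-7e stood at 194 ± 12.4 CPM in Sperm and 2759 ± 863 CPM in Adult (-3.83 ± 0.48, adjusted p = 2.1e-10), and the log2 ratio of its neighbour miR-99b to it averaged 1.41 ± 0.94 in Sperm and 0.94 ± 0.12 in Adult (exact permutation p = 0.429). miR-10a rose 8.08-fold, to 6309 ± 1856 CPM in Sperm against 780 ± 585 CPM in Adult (3.02 ± 0.48, adjusted p = 1.0e-07). miR-10b (-0.51, adjusted p = 0.217) and let-7a (0.10, adjusted p = 0.807) were not called. These folds rest on the TMM factors, which were 0.48 to 0.64 in Sperm and 1.42 to 2.30 in Adult. Without scaling beyond the total the median of all miRNAs moved from 0.06 to -1.61. The other settings were not recorded for these 5, here or between the testis stages, so their sizes and the direction of small folds are tied to TMM. The log2 ratio of miR-99a to let-7c, which had narrowed over the testis stages, was 3.53 ± 0.51 in Sperm and 0.29 ± 0.34 in Adult (SD, n = 4 each), a difference of 3.24 with no overlap (exact permutation p = 0.0286, adjusted p = 0.0857).

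The miRNAs whose log2 CPM over the 13 testis libraries was most like each member's are given with Pearson's r, as a description of libraries that share stages. For miR-99a they were miR-211 (0.97), miR-98 (0.96) and miR-299 (0.91). For miR-100 they were miR-1468 (0.79), miR-1839 (0.77) and miR-139-5p (0.73), and for miR-99b let-7f (0.86), its cluster neighbour let-7e (0.77) and miR-218 (0.74). miR-125a-5p and miR-125b-5p were each other's nearest (0.92), followed by miR-140-5p (0.84) and miR-155 (0.83) for miR-125a-5p and by miR-155 (0.91) and miR-181a (0.84) for miR-125b-5p. No member of the miR-99/100 family was among the 3 nearest of another, and miR-99b and miR-125a-5p, from the same cluster, had an r of 0.01.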

How the data were processed

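Small RNA was sequenced in 13 testis and 4 sperm libraries. Per the submitters' processing notes, Trimmomatic was used and the build was EquCab3.0. No aligner, counting program or annotation release is named in the sources used here. In the deposited table, 302 annotated entries and 1461 predicted hairpins (1763 in all) carried whole read counts and RPM per library. The deposited RPM values equalled counts divided by the library total within 0.005 RPM and were not used further. A deposited column of totals was not used. Columns numbered 4 exist for Adult and Sperm and were told apart by prefix, an inference from columns whose number occurs in 1 tissue only.

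For each of 274 mature names the entry with most counts was kept (22 names had several). edgeR 4.0.16 in R 4.3.3 fitted the 13 testis libraries (184 miRNAs after filterByExpr) and, separately, Sperm and Adult (162), with TMM scaling. SEs derive from the F statistic and are approximate. DESeq2 1.42.0 and limma-voom (limma 3.58.1) were alternatives. Within-library log2 ratios used counts plus 0.5, and marker sums are plain CPM. Scripts were tested on simulated data. Named miRNAs are the 5 members, their let-7 neighbours, miR-10a and miR-10b, and for each member the 3 miRNAs with the highest r. Members and lists were chosen with earlier results of these data known. The 7 other-arm names looked up (such as miR-99a-3p) gave no match and are not analysed here.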

Additional observations from a re-analysis of the deposited data

Results flagged for a closer look

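Groups of 4 libraries were searched for a library far from the others, by the gap to its nearest neighbour over the group's range. Of 47 groups searched, 2 held such a library, and chance gives about 1 in 20 groups. The first was miR-99b in Sperm, which held 0.0688% of annotated counts in Sperm 3 and 0.0178 to 0.0258% in the other Sperm libraries (gap over range 0.843). Sperm 3 also held the highest percentages of miR-99a, miR-100, miR-125a-5p and miR-125b-5p among the Sperm libraries. The second was the miR-99a share of the miR-99/100 family, 96.8% in Sperm 1 and 96.0 to 96.1% in the other Sperm libraries (gap over range 0.849), where the whole range is narrow.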

How the results depend on the processing

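No paired analysis was possible because the groups compared share at most 1 replicate number (4, in Adult and Sperm).

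Of 127 counts of called members under other settings, 102 stayed within 1.5 times the main count and 25 did not. For Pre-puber over Infant (1 member called) the count was 0 by limma-voom, with all entries in the fit, with the entry with the lowest total, with all 17 libraries in 1 fit and with libraries sharing a title number summed. In these settings 36 of 184, 606 of 916, 43 of 183, 43 of 184 and 29 of 182 were called among all tested. For Adult over Puber (0) it was 1 without scaling beyond the total (1 of 184 miRNAs called), by DESeq2 (10 of 184) and with the 2 groups alone (19 of 176). For Sperm over Adult (3) it was 5 without scaling (122 of 162 miRNAs called). With all entries in the fit the counts were 4 for Puber over Infant, 5 for Adult over Infant, 4 for Puber over Pre-puber and 5 over the stages, where 805, 832, 198 and 855 of all 916 entries were called; predicted hairpins then set the scaling, and the median of all 916 entries was 5.64 (log2) in Adult over Infant. With all 17 libraries in 1 fit the counts were 1, for Puber over Infant, for Adult over Infant and over the stages, where 58, 85 and 81 of 184 miRNAs were called. Leaving out 1 library at a time gave 0 to 1 for Pre-puber over Infant, 2 to 4 for Puber over Infant and over the stages, 0 to 1 for Adult over Puber. For Pre-puber over Infant the counts of 0 came with 33 to 41 of 182 to 184 miRNAs called. The counts of 4 came without Puber 19, where 62 of 188 miRNAs were called for Puber over Infant and 88 of 188 over the stages. For Adult over Puber the counts of 1 came with 7 of 188 called without Puber 19 and 7 of 185 without Adult 20.

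Of 520 fold changes of members, 422 kept their direction and their side of the threshold, 34 gained and 20 lost a call, and 44 changed sign. Without scaling, the sign changed for miR-125b-5p (0.064 in Pre-puber over Infant, 0.32 in Adult over Puber), miR-99b (0.41, Adult over Infant), miR-100 (0.001, Adult over Puber), miR-125a-5p (0.17, Adult over Puber) and miR-99a (-1.13, Sperm over Adult). miR-99b in Puber over Infant became -0.29 by upper quartiles, -0.23 with no filter, -1.46 with all entries and -0.035 with the 2 groups alone. miR-99a in Sperm over Adult became -0.15 by RLE and DESeq2, -0.63 with all entries and -0.11 with all 17 libraries. In Adult over Puber miR-125a-5p became 0.013 by RLE and DESeq2 and 0.11 with no filter, and miR-125b-5p became 0.11 by RLE and DESeq2, 0.17 with no filter, 0.007 with the entry with the lowest total, 0.006 with all 17 libraries, and 0.061 with the 2 groups alone. miR-100 in Puber over Pre-puber became -0.035 with no filter and, with all entries, -1.67, with -0.63 in Puber over Infant and -1.32 in Adult over Infant; miR-99b then became -1.34 in Puber over Pre-puber. The cause was not tested.

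Leaving out 1 library at a time, sign changes fell within -0.84 to 0.002 for miR-125a-5p in Pre-puber over Infant, -0.031 to 0.16 for miR-99b in Puber over Infant, -0.105 to 0.41 for miR-100 in Puber over Pre-puber, and in Adult over Puber -0.60 to 0.006 for miR-100, -0.29 to 0.42 for miR-125a-5p and -0.059 to 0.225 for miR-125b-5p. Of 210 log2 ratio differences, 199 kept their direction. The others were miR-99b/miR-125a-5p (-0.003 in Pre-puber over Infant with libraries sharing a title number summed, -0.40 to 0.31 leaving out 1 library), miR-125a-5p/miR-125b-5p (-0.13 in Adult over Infant when summed, -0.17 to 0.28 leaving out 1, and -0.34 to 0.13 in Pre-puber over Infant) and miR-99b/let-7e (-0.27 to 0.12 in Pre-puber over Infant). The stage test of miR-100/miR-125b-5p had adjusted p from 0.00557 to 0.0918. Exact tests of a ratio between 2 groups cannot fall below 0.10 with 3 against 3 libraries or 0.0286 with 4 against 3 or 4.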
